A study of Mus musculus with 7 samples.

Results

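The genes described here are 9 cytotoxic effector genes of the mouse: the granzymes Gzma, Gzmb, Gzmk and Gzmm, perforin (Prf1), interferon gamma (Ifng), Fas ligand (Fasl) and the chemokines Ccl5 and Xcl1. They were listed by name, with no threshold on a measured value but with earlier results of these data known, from 21887 protein-coding genes in a RefSeq gene table of GRCm38.p6, and all 9 were found there. Each gene is described by the LEF1 and TCF1 peaks that touched its body or the 10 kb on each side, and then by those within 50 kb.

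The peaks came from CUT&RUN, an assay that tethers a nuclease to an antibody inside the cell and sequences the DNA it releases. The cells were CD8 T cells of spleen from mice of WT genotype, carried the transgenic TCR-P14 receptor and were sorted as CD8+, Ly5.1+, CD44- and CD62L+, the surface phenotype of naive cells. There were 3 libraries made with an antibody to LEF1 and 3 made with an antibody to TCF1, and these 2 groups shared cell type, genotype and gate. A further library without antibody, the input control, was sorted through another gate (Ly5.1- and CD44+); its peaks were not analysed here. The age and strain of the mice, and whether replicates came from separate animals, are not stated in the labels, so p-values measure only the spread between libraries and this spread may be technical.

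Cytotoxic T cells kill by releasing granules that hold perforin, which opens pores in the target cell, and granzymes, serine proteases that enter through them. They also kill through Fas ligand on their surface, which triggers death through the receptor Fas, and they signal to other cells with interferon gamma and chemokines. LEF1 and TCF1, the latter encoded by Tcf7, share an HMG-type DNA-binding domain and are known for keeping T cells in a naive or stem-like state, a state in which most effector genes are little used until the cell meets antigen.

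The lists held 27666, 37646 and 23704 peaks for LEF1 replicates 1, 2 and 3, and 25623, 22901 and 11423 for TCF1. LEF1 replicate 2 was the longest and TCF1 replicate 3 the shortest, and a longer list touches more genes. Read totals are unknown here. Peaks that shared at least 1 bp over the 6 libraries were merged into 38231 regions, and a factor was said to hold a region when at least 2 of its 3 libraries had a peak in it. LEF1 held 27401 regions, TCF1 held 21214, and both held 20475, which is 74.7% of the LEF1 regions and 96.5% of the TCF1 regions. Markers of CD8 T cells had a region within 10 kb in 5 of 5 genes for both factors, those of B cells in 2 of 3, of NK cells in 1 of 3 and of myeloid cells in 1 of 4; erythroid markers had one in 1 of 3 for LEF1 and 2 of 3 for TCF1. The share over all coding genes was 52.6% for LEF1 and 49.8% for TCF1. The 5 CD8 T cell markers lie on chromosomes 6 and 9 alone and some are neighbours, so they are not 5 separate loci. Peaks do not measure expression, and a list cannot tell a site cut in every cell from one cut in some of them.

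Peaks lay on the promoters of 5 of the 8 members that have a promoter in the RefSeq table of GRCm38.p6, which covers 250 bases before and 50 after each start site. The 250 bases before the start of these 5 genes are shown because they place the peak, with capitals on the 21 bases around the median summit, the point of highest signal. The intervals are, in the same order, chr1:161788496-161788745 for Fasl, chr14:56262335-56262584 for Gzmb, chr10:61297586-61297835 for Prf1, chr10:118440796-118441045 for Ifng and chr13:113100982-113101231 for Gzma, and each sequence is written 5′ to 3′ on the strand of its gene (plus for Prf1 and Ifng, minus for the other 3).
Fasl: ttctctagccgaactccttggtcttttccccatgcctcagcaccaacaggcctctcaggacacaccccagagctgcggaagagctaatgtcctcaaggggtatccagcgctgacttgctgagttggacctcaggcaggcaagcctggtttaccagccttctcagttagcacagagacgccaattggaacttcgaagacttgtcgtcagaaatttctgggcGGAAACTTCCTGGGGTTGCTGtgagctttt
Gzmb: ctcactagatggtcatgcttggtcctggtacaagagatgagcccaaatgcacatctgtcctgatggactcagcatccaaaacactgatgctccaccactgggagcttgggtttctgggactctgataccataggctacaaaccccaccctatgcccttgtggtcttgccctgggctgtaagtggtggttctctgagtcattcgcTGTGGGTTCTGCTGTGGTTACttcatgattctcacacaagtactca
Prf1: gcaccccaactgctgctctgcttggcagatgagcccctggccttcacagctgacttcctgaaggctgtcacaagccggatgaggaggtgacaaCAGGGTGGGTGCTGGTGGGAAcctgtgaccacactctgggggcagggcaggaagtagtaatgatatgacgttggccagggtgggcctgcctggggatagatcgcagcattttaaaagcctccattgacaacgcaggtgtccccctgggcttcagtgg
Ifng: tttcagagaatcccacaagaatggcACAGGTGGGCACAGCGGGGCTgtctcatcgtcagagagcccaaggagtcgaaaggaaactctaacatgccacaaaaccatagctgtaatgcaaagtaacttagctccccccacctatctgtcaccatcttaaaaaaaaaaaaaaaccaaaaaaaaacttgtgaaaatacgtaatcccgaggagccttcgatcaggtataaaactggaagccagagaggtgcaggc
Gzma: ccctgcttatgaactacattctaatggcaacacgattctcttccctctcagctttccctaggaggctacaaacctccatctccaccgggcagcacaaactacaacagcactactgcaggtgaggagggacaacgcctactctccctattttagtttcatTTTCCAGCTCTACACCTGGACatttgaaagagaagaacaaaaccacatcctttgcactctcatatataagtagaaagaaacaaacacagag
The summit stood 20 bases before the start of Fasl, 36 before that of Gzmb, 81 before that of Gzma, 147 before that of Prf1 and 215 before that of Ifng. The Fasl, Gzmb and Prf1 promoters were touched by a peak in all 6 libraries. Those of Ifng and Gzma were touched in 3 LEF1 libraries and 2 TCF1 libraries, with TCF1 replicate 3 the one without a peak. The Gzmk, Gzmm and Xcl1 promoters were touched in none. Over 21238 promoters of coding genes, 29.2% were touched by a region held by LEF1, 29.5% by one held by TCF1 and 17.5% by a region found in all 6 libraries.

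The promoters were also searched for 4 spellings of the TCF/LEF core (CTTTGAT or CTTTGAA or CTTTGTT or CTTTGTA) on both strands; as they share their first 5 letters, only 1 of them can lie at a given position. None of the 5 touched promoters held a word, in the 250 bases printed or in the 50 after the start. Words were found in 2 of the promoters without a peak, shown here with the word in capitals: Gzmk (chr13:113180966-113181215, minus strand), where CTTTGAA began 88 bases before the start, and Gzmm (chr10:79688770-79689019, plus strand), where CTTTGTT lay in reverse 114 bases before the first of 2 listed starts.
Gzmk: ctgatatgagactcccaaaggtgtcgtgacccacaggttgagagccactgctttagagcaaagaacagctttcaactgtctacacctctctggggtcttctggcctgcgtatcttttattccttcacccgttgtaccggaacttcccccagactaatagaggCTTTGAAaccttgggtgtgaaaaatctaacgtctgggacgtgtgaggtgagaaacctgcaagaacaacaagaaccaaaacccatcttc
Gzmm: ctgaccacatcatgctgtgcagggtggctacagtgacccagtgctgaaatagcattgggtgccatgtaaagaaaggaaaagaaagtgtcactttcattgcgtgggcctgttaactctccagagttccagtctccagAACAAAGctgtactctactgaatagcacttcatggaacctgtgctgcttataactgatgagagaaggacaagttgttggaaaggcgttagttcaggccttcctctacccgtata
The same Gzmm window held CTTTGTA in reverse 20 bases after the start, and the Xcl1 promoter held none of the 4. Among all 21238 promoters, 14.7% held at least 1 word. The share was 12.2% of the 5780 promoters touched by a region that both factors held, and 16.3% of the 13676 touched by no region. A match is a description of the letters only.

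Within 10 kb, 7 of the 9 members had a region held by LEF1, and the same 7 had one held by TCF1 and one held by both. Gzmk and Xcl1 were without a peak in every library. Over all coding genes the shares were 52.6% for LEF1, 49.8% for TCF1 and 48.1% for both. The members are short, 3499 to 9336 bp, and among the 3759 coding genes within that range of lengths 46.2% had a region held by both factors. A region found in all 6 libraries lay near 5 members (Gzmb, Gzmm, Prf1, Fasl and Ccl5), against 33.8% of all coding genes. No test stands behind these shares. When each list was limited to its 11423 peaks with the highest −log10 q, the length of the shortest list, 5 of 9 members had a region held by both, against 29.6% of coding genes, and Gzma and Ifng were the members lost.

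The 9 windows of 10 kb held 19 distinct regions, of which both factors held 14, TCF1 alone held 1, LEF1 alone held 0 and neither factor held 4. TCF1 thus held 100% of the 14 regions held by LEF1, against 74.7% over all regions and 75.9% within 50 kb of the members. This difference was not tested. The 4 that neither held were each found in LEF1 replicate 2 alone, the longest list. A further 3 were missing from TCF1 replicate 3 alone, and 10 were found in all 6 libraries. Of the 19 regions, 5 had a coding gene other than a member as the nearest one, and 2 had a summit within 1 kb of an end of such a gene. The 5 include the promoter region of Gzma, whose summit lies inside the annotated span of the coding gene Cdc20b.

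**Figure D1:**
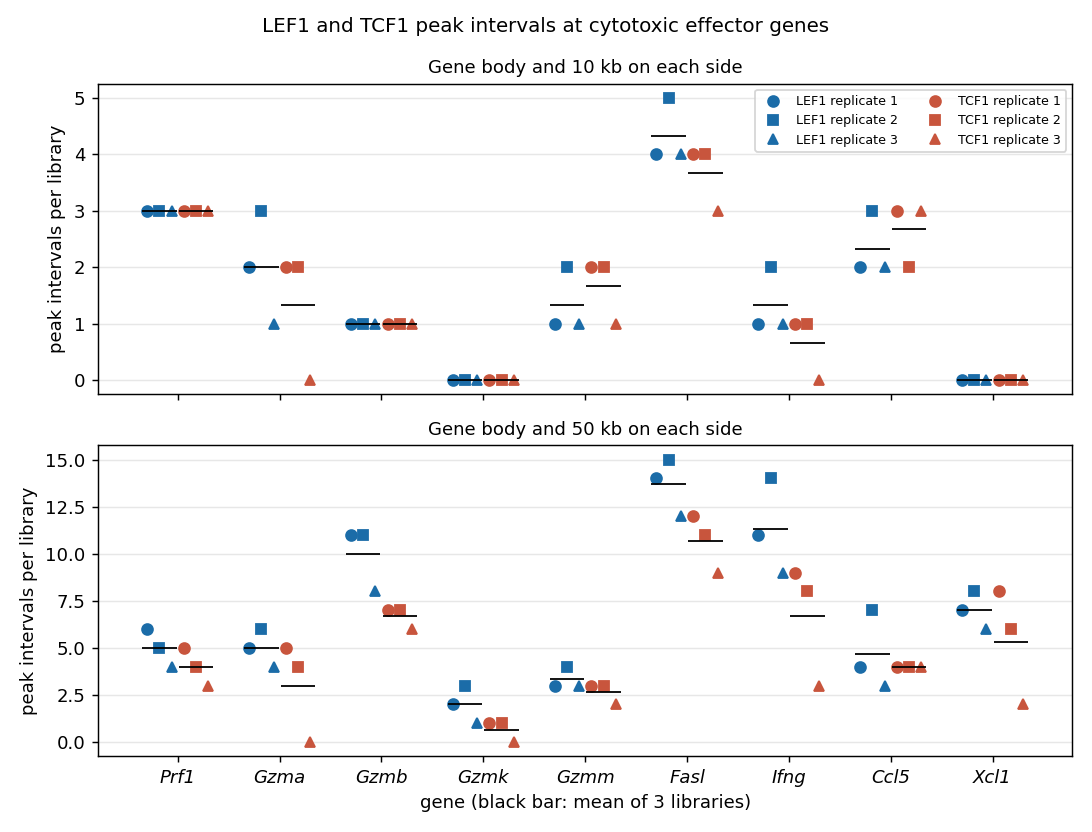
Distinct peaks within 10 kb and 50 kb of each of the 9 genes, 1 point per library, with LEF1 and TCF1 in different colours and a black bar for the mean of 3 libraries. Within 10 kb the factors overlap at every gene, with Gzmk and Xcl1 at 0 in all 6 libraries, and within 50 kb Gzmb is the gene whose LEF1 counts (8 to 11) all lie above its TCF1 counts (6 to 7).

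Perforin, the pore-forming protein, had 3 peaks within 10 kb in every library of both factors. Prf1 lies at chr10:61297751-61304684, and its regions stood at the promoter, inside the gene and just past its end. The promoter region (chr10:61296648-61298095) had a fold enrichment, the authors' ratio of signal to local background at the summit, of 9.34, 17.1 and 7.69 in LEF1 replicates 1, 2 and 3 and 13.7, 11.3 and 6.01 in TCF1. The region inside the gene (chr10:61301037-61301622) ranged from 18.2 to 34.0. The region 1.22 kb past the gene (chr10:61305905-61306677) had 57.5, 76.3 and 45.3 in LEF1 and 56.2, 56.1 and 26.0 in TCF1. It was thus the strongest of the 3 in each library, and it ranked among the top 2.11% to 7.34% of the peaks of its list. Fold enrichments come from separate lists and are given as description, with no test between libraries.

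Granzyme B, which cleaves after aspartate and activates caspases, had 1 peak within 10 kb in every library. It covered the start of the gene (chr14:56261985-56262480; Gzmb lies at chr14:56258836-56262334), with fold enrichments of 23.6, 20.6 and 12.5 in LEF1 and 12.3, 12.8 and 5.76 in TCF1. These values placed it between the top 17.7% and the top 87.8% of its list, with the strongest rank in LEF1 replicate 1 and the weakest in TCF1 replicate 3. Stronger peaks lay farther upstream. Regions 22.3 kb, 25.6 kb and 33.9 kb upstream of the start were found in all 6 libraries, each with a higher fold enrichment than the promoter region in every one, and reached 44.5, 31.4 and 41.1 in LEF1 replicate 2. The one at 22.3 kb had 15 in TCF1 replicate 3, where it was lowest.

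Gzmb was also the one member whose peak counts did not overlap between the factors. Within 50 kb it had 11, 11 and 8 peaks in the LEF1 libraries and 7, 7 and 6 in the TCF1 libraries, a mean of 10 ± 1.73 against 6.67 ± 0.577 (SD, n = 3). It was 1 of 9 members (11.1%), too few genes to set the members apart from coding genes. Over all coding genes, 6.06% had higher counts in every LEF1 library within 50 kb and 0% in every TCF1 library. Within 10 kb these shares were 3.63% and 0.0274%, and 0 of the 9 members belonged to either. Of the 9 regions that LEF1 held near Gzmb, TCF1 held 6. Of the other 3, one 30.3 kb upstream was found in all 3 LEF1 libraries and no TCF1 library, with fold enrichments of 9.80, 9.91 and 6.73. Peaks that a list splits in 2 count as 2; counted as regions with a peak, the values were 10, 10 and 8 for LEF1 and 7, 7 and 5 for TCF1. With lists of equal length the peak counts became 7, 7 and 6 for LEF1 and 6, 5 and 6 for TCF1, which overlap. With a −log10 q of at least 5 they were 9, 11 and 8 for LEF1 and 6, 6 and 4 for TCF1, which do not. That filter left the lists unequal, at 24280, 33645 and 20734 peaks for LEF1 and 22561, 20459 and 9926 for TCF1.

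Granzyme A, a protease that cleaves after basic residues, had 2, 3 and 1 peaks within 10 kb in LEF1 and 2, 2 and 0 in TCF1. Gzma (chr13:113093824-113100981) lies inside the annotated span of another coding gene, Cdc20b, so its peaks count for both. The promoter region (chr13:113100902-113101224) had fold enrichments of 5.87, 9.72 and 6.71 in LEF1 and 6.24 and 5.85 in TCF1, which placed it at the top 58.4% to 87.3% of its lists. The other held region, 13.2 kb downstream of the start, was found in 2 libraries of each factor at 9.01 to 14.2. TCF1 replicate 3 was without a peak at Gzma even within 50 kb.

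Granzyme M had peaks within 10 kb in all 6 libraries, from 1 to 2 per library, but none lay on the gene (chr10:79689020-79695261). The region found in all 6 libraries (chr10:79704175-79704825, 12.3 to 24.1 fold) had its summit within 1 kb of an end of Bsg. The one held by TCF1 alone had its summit within 1 kb of an end of Cdc34. It had 4.60 and 5.50 fold in TCF1 replicates 1 and 2, and 3.54 in LEF1 replicate 2, the only LEF1 library with a peak there. Left without peaks at the ends of other coding genes, Gzmm had no held region, and 6 of 9 members did. Granzyme K, related in its specificity to granzyme A and lying on the same chromosome (chr13:113171630-113180965), had 0 peaks within 10 kb in all 6 libraries. Its nearest region held by both factors lay 36.3 kb downstream, between Gzma and Gzmk, and within 50 kb the counts were 2, 3 and 1 in LEF1 and 1, 1 and 0 in TCF1.

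Fas ligand had the most peaks of the 9 genes within 10 kb, with 4, 5 and 4 in LEF1 and 4, 4 and 3 in TCF1. The counts overlapped between the factors. Both factors held 4 regions there, and 10.3% of coding genes had 4 or more regions held by either factor. Fasl lies at chr1:161780691-161788495 on the minus strand.

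The strongest region of all the members lay 0.835 kb past the end of Fasl (chr1:161778707-161779856), 9.28 kb downstream of its start. Its fold enrichment was 148, 186 and 97.5 in LEF1 replicates 1, 2 and 3 and 118, 110 and 66.6 in TCF1. In each library it was among the top 0.283% of peaks, and it took rank 31 by mean percentile among the 10890 regions found in all 6 libraries. The summit was listed at the same base in all 6, which held for 2.08% of those 10890 regions. The promoter region of Fasl (chr1:161788208-161788766), over the sequence shown above, had 56.3, 79.7 and 50.5 in LEF1 and 49.6, 46.0 and 20.4 in TCF1. Another, 13.2 kb downstream of the start (chr1:161774988-161775712), had 27.1 to 67.6, and the last of the 4, 6.50 kb upstream, was weaker at 5.35 to 12.0 and missing from TCF1 replicate 3.

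More regions followed beyond the 10 kb edge of Fasl. Just inside the edge over all members, the Bsg region near Gzmm lay 8.91 kb from its gene, and just outside it a region 10.4 kb upstream of Fasl had 11.2 to 26.1 fold in 5 libraries. A region 21.8 kb downstream (chr1:161765780-161767496), inside the lncRNA gene Gm31869, had 66.8, 108 and 62.9 in LEF1 and 71.8, 63.7 and 23.5 in TCF1. Upstream, regions at 16.2 kb and 21.2 kb reached 76.4 and 55.3 in LEF1 replicate 2. Within 50 kb, LEF1 held 13 regions at Fasl and TCF1 held 11, and 9 were found in all 6 libraries. Counted as held by either factor, 13 or more regions lay within 50 kb of 2.9% of coding genes.

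**Figure D2:**
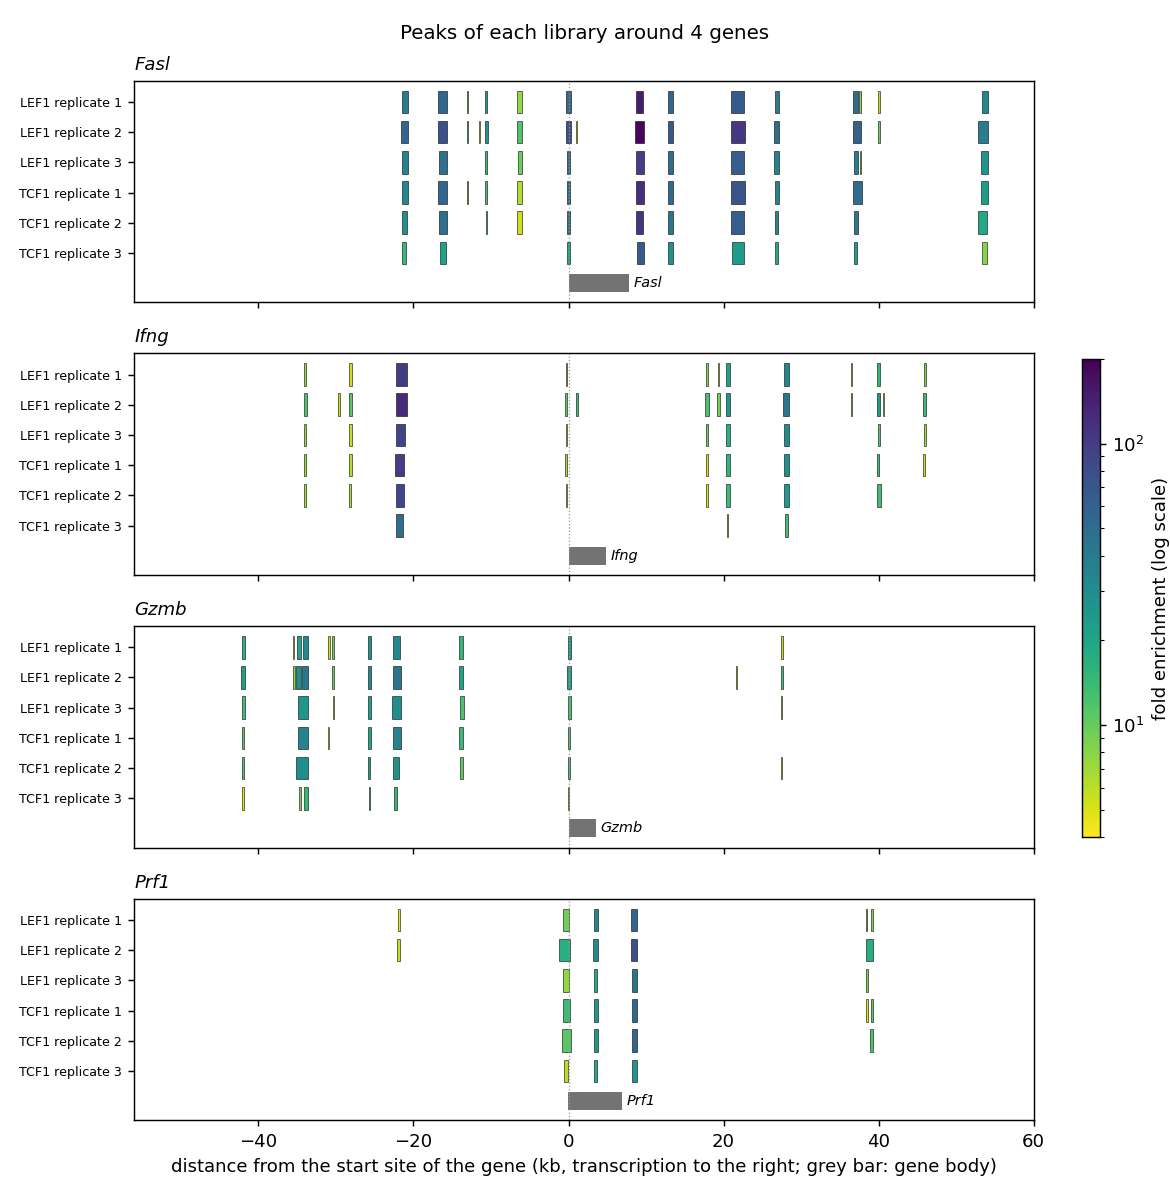
Peaks of each library around Fasl, Ifng, Gzmb and Prf1, with distance from the start site in kb on the horizontal axis (transcription to the right), 1 row per library and fold enrichment as colour on a log scale; the grey bar is the gene body. The darkest peaks stand just past the end of Fasl, at 66.6 to 186 fold, and 21.7 kb upstream of Ifng, at 51.1 to 125.8 fold.

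Interferon gamma, the cytokine that activates macrophages and raises antigen presentation, had few peaks at the gene and a strong one away from it. Those at the gene had 13.2 fold or less. Within 10 kb it had 1, 2 and 1 peaks in LEF1 and 1, 1 and 0 in TCF1. The promoter region (chr10:118440645-118440906; Ifng lies at chr10:118441046-118445894) had 7.65, 11 and 5.70 in LEF1 and 6.78 and 5.72 in TCF1. The other peak of LEF1 replicate 2 lay inside the gene, at 13.2 fold, and was found in no other library. A region 21.7 kb upstream of the start (chr10:118418638-118420240) had 100.2, 125.8 and 90.3 in LEF1 and 98.4, 86.5 and 51.1 in TCF1. It was among the top 0.875% of peaks in each list and took rank 99 of the 10890 regions found in all 6 libraries. No other annotated gene lies within 50 kb of Ifng.

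Within 50 kb the Ifng counts were 11, 14 and 9 in LEF1 and 9, 8 and 3 in TCF1, which overlap. LEF1 held 11 regions and TCF1 held 8, but 3 were found in all 6 libraries: the upstream one and those 20.5 kb and 28.2 kb downstream of the start, the latter at 13.2 to 43.2 fold. Counted as held by either factor, 11 or more regions lay near 4.83% of coding genes at this distance, and 1 or more, the Ifng count within 10 kb, near 54.1% at 10 kb.

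**Figure D3:**
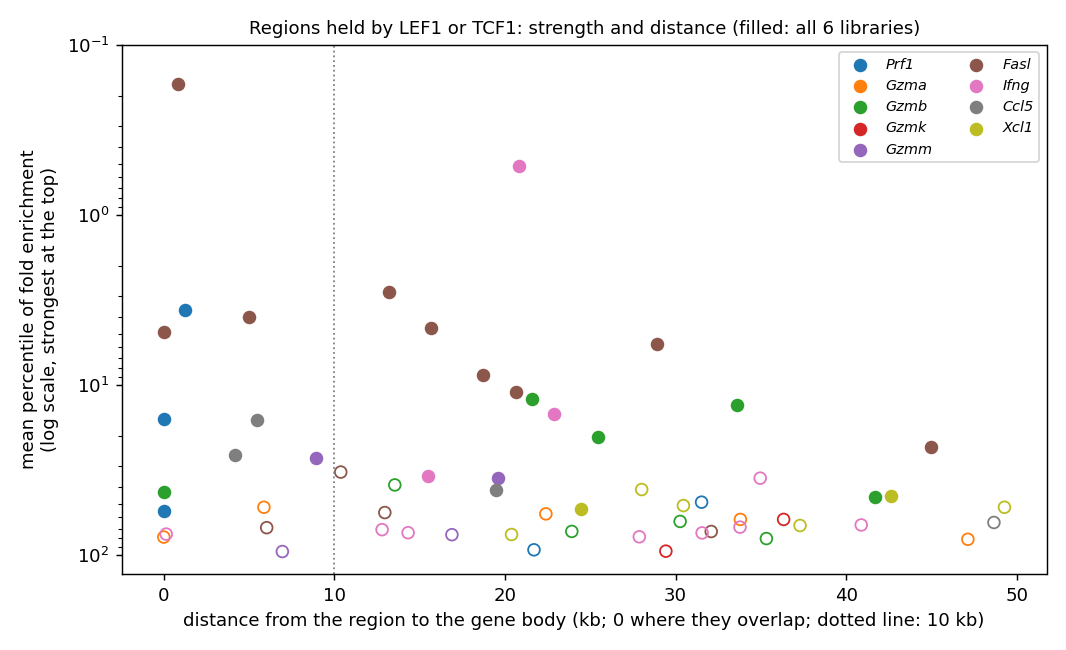
Mean percentile of fold enrichment (log axis, strongest at the top) of each region held by LEF1 or TCF1 against its distance from the gene body in kb, coloured by gene; filled points were found in all 6 libraries and the dotted line marks 10 kb. The region past Fasl (0.17) and the one upstream of Ifng (0.515) stand above all others, and the open points lie among the weaker filled ones and below them.

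Ccl5, a chemokine that draws T cells and myeloid cells, had 2, 3 and 2 peaks within 10 kb in LEF1 and 3, 2 and 3 in TCF1. Both held regions lay on the same side of the gene (chr11:83525778-83530518), toward higher coordinates. The nearer (chr11:83534675-83535441, 4.16 kb away) had 21.6, 27.5 and 16.1 in LEF1 and 23.1, 20.6 and 9.79 in TCF1. The farther (chr11:83535976-83537484, 5.46 kb away) had 29.3, 48.2 and 22.3 in LEF1 and 32.4, 28.2 and 11.6 in TCF1, and both were found in all 6 libraries. A peak next to the gene itself was listed in LEF1 replicate 2 alone, at 8.43 fold.

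Xcl1, the chemokine that attracts dendritic cells bearing Xcr1, had 0 peaks within 10 kb in all 6 libraries (chr1:164931644-164935522). Its nearest region lay 20.4 kb upstream. Within 50 kb it had 7, 8 and 6 peaks in LEF1 and 8, 6 and 2 in TCF1, with LEF1 holding 7 regions and TCF1 holding 6. All were weak or moderate, at 4.67 to 17.6 fold, and the 2 found in all 6 libraries lay 24.8 kb upstream and 46.7 kb downstream of the start.

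Summed over the 9 windows of 10 kb, the LEF1 libraries had 14, 19 and 13 distinct peaks and the TCF1 libraries 16, 15 and 11. The means were 15.3 ± 3.21 for LEF1 and 14 ± 2.65 for TCF1 (SD, n = 3 libraries each), a difference of 1.33 that was within the spread between libraries (exact permutation test over 20 assignments, two-sided p = 0.7). It turned to -0.50 without LEF1 replicate 2, to -0.17 without TCF1 replicate 3 and to -0.67 with lists of equal length. Per 1000 peaks of the list the values were 0.506, 0.505 and 0.548 for LEF1 and 0.624, 0.655 and 0.963 for TCF1. These groups did not overlap, with 0.520 ± 0.0249 for LEF1 and 0.747 ± 0.187 for TCF1, and the exact two-sided p of 0.1 is the smallest that 3 against 3 libraries allow. The highest of the values, 0.963, belonged to the shortest list. The TCF1 lists were shorter on the whole, with some overlap in length between the factors. Whether factor or list length sets these values was not tested. The difference, LEF1 minus TCF1, was -0.228 with all libraries, -0.120 without TCF1 replicate 3 and -0.0584 with lists of equal length.

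Within 50 kb all 9 members had a region held by LEF1, by TCF1 and by both. The shares of coding genes at this distance were 68.3%, 66.4% and 65.1%, and 65.9% of the genes as short as the members had one held by both. A region found in all 6 libraries lay near 7 members, without Gzma and Gzmk, against 52.8% of coding genes. The windows held 72 distinct regions: 44 held by both, 14 by LEF1 alone, 1 by TCF1 alone and 13 by neither. Of the regions held by LEF1, 75.9% were also held by TCF1, and LEF1 also held 97.8% of the TCF1 ones. These are near the 74.7% and 96.5% over all regions. There were 2 regions with a peak in every LEF1 library and no TCF1 library, at Gzmb and Gzmm, and 0 of the converse kind. These are 2.78% and 0% of the 72, near the 3.14% and 0.0183% of all 38231 regions. In the same windows, 10 regions were found in LEF1 replicate 2 alone and 16 were missing from TCF1 replicate 3 alone.

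The wider windows held 62, 72 and 49 peaks in the LEF1 libraries and 53, 47 and 29 in the TCF1 libraries. The means, 61.0 ± 11.5 and 43.0 ± 12.5, differed by 18.0, with an exact permutation p of 0.2 (two-sided, n = 3). The difference was 11 without TCF1 replicate 3 and -0.33 with lists of equal length. Per 1000 peaks of the list the values were 2.24, 1.91 and 2.07 for LEF1 and 2.07, 2.05 and 2.54 for TCF1, which overlap (exact permutation p = 0.6).

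**Figure D4:**
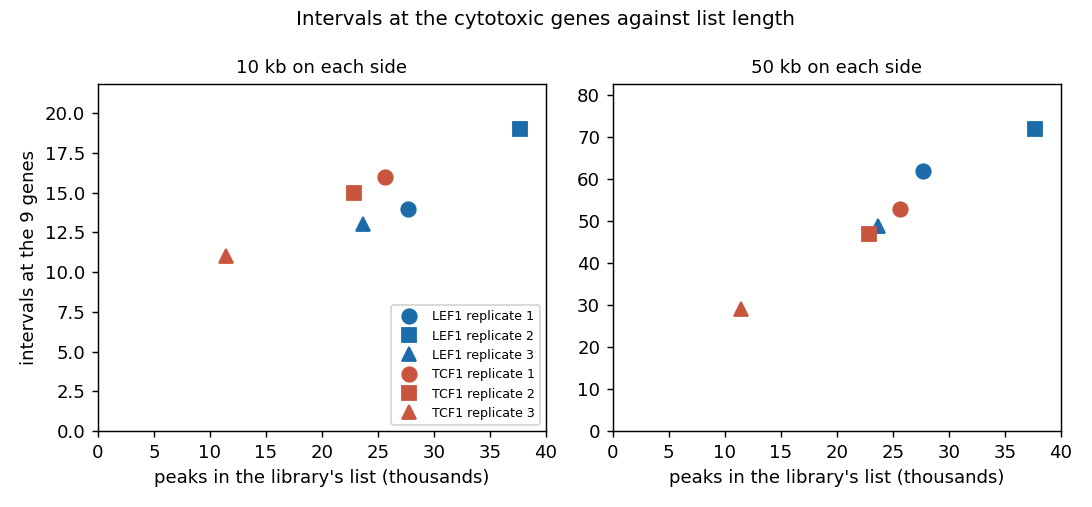
Total distinct peaks at the 9 genes in each library against the length of its peak list, within 10 kb and 50 kb, with LEF1 and TCF1 in different colours. LEF1 replicate 2, with 37646 peaks, has the highest totals (19 and 72), and TCF1 replicate 3, with 11423, the lowest (11 and 29).

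Of the 27 regions at the members that were found in all 6 libraries, TCF1 replicate 3 had the lowest fold enrichment in 27 and LEF1 replicate 2 the highest in 23. The same held for 96.1% and 87.2% of all 10890 such regions, so the order of the libraries at these genes was that of the whole lists. The summits of the 27 regions spread over a median of 26 bp between libraries, and at most 321 bp, against a median of 49 bp for all such regions. Of the 27, 9 lay within 50 kb of Fasl, so they are not 27 separate loci.

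Related genes were counted in the same way within 10 kb. Over all coding genes the shares with a region were 52.6% for LEF1, 49.8% for TCF1 and 48.1% for both, and no list was tested against them. Of 6 other granzymes, which lie in the cluster beside Gzmb, 1 (Gzmc) had a region, held by LEF1 and not by TCF1, and Gzmd, Gzme, Gzmf, Gzmg and Gzmn had none. Of 10 genes for the loading, transport and control of granules, 9 had a region of each factor. Their median length was 18.6 kb, against 6.24 kb for the members, and Rab27a spans 52.8 kb. A longer gene has a wider window. Rab27a, a GTPase that docks granules, had 7 regions held by LEF1 and 6 by TCF1, Srgn, the granule proteoglycan serglycin, had 5 and 5, and Nkg7, a granule membrane protein, had 3 and 3. Ctsw (a granule cathepsin), Unc13d (a priming factor for granule release) and Serpinb9 (an inhibitor of granzyme B) each had 2 and 1, and Lamp1 had none.

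Of 7 other cytokines, chemokines and death ligands, 4 had a region of each factor. Tnf had 8 regions held by LEF1 and 6 by TCF1, and Lta 7 and 5, but they are neighbours and share most of their windows. Ccl4 had 2 and 2 and Ccl3 had 1 and 1, while Csf2, Il2 and Tnfsf10 had none. Among receptors for the members' products, Ifngr1 had 9 regions held by LEF1 and 7 by TCF1, Ifngr2 had 6 and 4, Xcr1 had 5 and 3 and Fas had 2 and 2.

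The median number of regions held by either factor within 10 kb was 2 for the 9 members, 1 for all coding genes, 2 for 7 transcription factors of effector fate, 2 for 7 inhibitory receptors and 9 for 7 genes of the naive state. The median gene length, which widens the window, was 6.24 kb for the members, 17.2 kb for all coding genes, 17.3 kb for the effector transcription factors, 26.3 kb for the inhibitory receptors and 20.9 kb for the naive genes. The best-ranked region of a gene had a median percentile of 27.0 in its lists for the 7 members with one, 38.4 for 11830 coding genes with one, 33.1 for the effector transcription factors, 11.3 for the inhibitory receptors and 2.49 for the naive genes, where a low percentile is a strong peak. The best-ranked region is picked from all held regions of a gene, so a list with more regions per gene has more to pick from. These medians were not adjusted for that number or for gene length. Whether the peaks at these genes mark bound factor or DNA open to the nuclease was not tested, since no list made without antibody was analysed here.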

How the data were processed

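The data are peak lists of 3 LEF1 and 3 TCF1 CUT&RUN libraries; the labels gave groups and replicate numbers. The submitters' processing notes name build GRCm38.p6, MACS3 3.0.3, Bowtie2 2.4.4, deepTools 3.5.1, Trim Galore 0.6.6, FastQC 0.12.1 and Picard. Options and control of the peak calling are not given in the sources used. Each deposited list has peak names of its own library, so peaks were called per library. The deposited fold enrichment is a ratio of summit signal to local background. The deposited p-value and q-value are −log10 values, and the smallest −log10 q was 2 to 2.06. The deposited score is the scaled −log10 q in whole numbers, and the deposited summit is an offset from the peak start; score and p-value entered no result. The lists give no read totals, so depth is unknown.

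Peaks on the autosomes, X and Y were analysed with Python 3.11.15, numpy 2.4.6, pandas 2.3.3 and scipy 1.17.1, and an interval with several summits counted once. Group means were compared with exact permutation tests over 20 assignments. Alternatives were other windows, a −log10 q of at least 5, lists of equal length, a peak in all 3 libraries, each library left out, and a replicate block. The code was tested on simulated data. All 9 members were named, with the 4 genes of each granule, cytokine and receptor list that had the most regions and genes with none; 1 gene that this rule names is not reported here. The members, lists and tests were chosen with earlier results of these data known.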

Additional observations from a re-analysis of the deposited data

How the results depend on the processing

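Within 10 kb the sign of the difference in peak totals between the factors depended on single libraries and on list length. Within 10 kb the difference (LEF1 minus TCF1) ranged from -0.5 to 2.5 as each library was left out, below 0 without LEF1 replicate 2 (-0.5) or TCF1 replicate 3 (-0.1667), and was -0.6667 with lists of equal length. Within 50 kb it was -0.3333 with lists of equal length, but stayed above 0, from 11 to 24, as each library was left out. Per 1000 peaks within 10 kb it stayed below 0 in all these settings. In the gene body alone, LEF1 held a region at 4 members, TCF1 at 4 and both at 4, and 4 regions there were found in all 6 libraries, against 27 within 50 kb. Members with a region held by TCF1, or by both, numbered 5 without TCF1 replicate 1 or 2 and 5 where all 3 libraries were required. Leaving out peaks at the ends of other coding genes, chosen after seeing the data, left 6 members for each factor. Shares of coding genes with the gene body alone, a library left out, all 3 libraries required or gene ends removed were not computed. Whether these lower counts are particular to the members was not tested. With a replicate block, paired sign flips, whose smallest p is 0.25, gave 1.333 (exact p = 0.75) and -0.2277 per 1000 peaks (exact p = 0.25) within 10 kb and 18 (exact p = 0.25) within 50 kb. In a check of the pairing, same-numbered libraries gave correlations of -0.0689, 0.179 and 0.35. LEF1 replicate 2 gave its highest value with TCF1 replicate 1, so the numbers were not taken as pairs. These values do not describe the raw counts. The mean counts at single members under other settings were labelled together with the Gzmb difference within 50 kb. Of these values, 37 stayed the same and 37 moved. A mean count stayed the same when it moved by no more than the SD between replicates. The Gzmb difference was judged by its sign alone, which it kept, and a mean count has no sign to change. A 50 kb window cannot lower a count and the gene body alone cannot raise it. The cause of the other moves was not tested. The length of the lists limits which weak peaks could be seen.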
